A study of Mus musculus with 12 samples.

Results

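Fatty acid desaturases insert double bonds into fatty acyl chains, and the ELOVL elongases start each cycle that lengthens an acyl-CoA by a pair of carbons at the endoplasmic reticulum. The liver uses them to turn dietary linoleic and alpha-linolenic acid into arachidonic acid and docosahexaenoic acid, and to make monounsaturated and very long chain fatty acids for membranes, sphingolipids and triacylglycerol. Some of their transcripts are known targets of SREBP-1c, the lipogenic factor of the fed liver, and of PPARα, the fatty acid receptor of the fasted liver. The 9 genes described here, *Fads1*, *Fads2*, *Fads3*, *Fads6*, *Elovl1*, *Elovl2*, *Elovl3*, *Elovl5* and *Scd2*, were chosen by symbol from a table of 48795 genes, and all 9 were among the 13812 genes with enough counts to test.

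RNA from whole liver was sequenced in 12 female mice aged 4 months, kept on normal chow, which were littermates matched for sex and age. There were 3 mice in each of 4 groups: fed *Nts*+/+ (NTS WT in the labels), *Nts*+/+ fasted for 22 h, fed *Nts*-/- (NTS KO) and *Nts*-/- fasted for 22 h. Fed mice ate ad libitum, the deletion of neurotensin (*Nts*, a gut and brain peptide) is whole-body, and the study used young mice on chow to ask whether liver mitochondria work better without the peptide, which also acts on fat absorption in the gut. *Nts* itself went against the labels, with a count of 0 in all 6 libraries labelled *Nts*+/+ and counts between 4 and 46 in the 6 labelled *Nts*-/-, so every genotype direction below is given as labelled.

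Library totals ran from 21999647 to 45273069 counts, and no libraries were identical. Levels are TMM-normalized CPM, counts scaled to library size with TMM factors that align most genes between livers, and are given for single mice in a fixed order, which is 254, 257 and 323 (*Nts*+/+ fed), 265, 282 and 322 (*Nts*+/+ fasted), 277, 303 and 319 (*Nts*-/- fed) and 284, 290 and 295 (*Nts*-/- fasted). Differences are log2 fold changes with their standard error (SE), and a gene is said to rise or fall where its edgeR p, adjusted over all 13812 genes, was under 0.05. Hepatocyte markers dominated every library, with a summed level of 8 genes between 115171 and 155480 TMM-normalized CPM. Of 7 adipocyte markers, 3 (*Lep*, *Ucp1* and *Retn*) were at 0 in all livers, and the sum of all 7 was at most 0.260 TMM-normalized CPM. Sums of 9 intestine markers were 43.1 to 96.8 fed and 112 to 148 fasted in *Nts*+/+, and 51.0 to 57.3 and 164 to 212 in *Nts*-/-. Sums of 5 pancreas markers were 10.9 to 13.3 fed and 2.68 to 4.03 fasted in *Nts*+/+, and 7.53 to 12.5 and 3.03 to 5.45 in *Nts*-/-. Of the 9 intestine markers only 2 had enough counts to test. *Fabp2* rose under both labels, and *Sis* and *Cdx1* were at 0 in all livers. Of the 5 pancreas markers only 1, *Cela1*, was tested. It fell under both labels, while *Cpa1*, *Prss1* and *Pnlip* were at 0 in all livers. The source of these reads was not tested.

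Promoter sequences are shown for some members so that these can be compared for the elements of the known regulators. *Fads3*, *Fads2* and *Fads1* are neighbours on chromosome 19 (GRCm38, from 10041548 to 10196870), with 4493 bases between *Fads3* and *Fads2* and 81385 between *Fads2* and *Fads1*. *Scd2* (44293676 to 44306864) and *Elovl3* (46131897 to 46135307) lie farther along the same chromosome. *Elovl1* is on chromosome 4, *Elovl5* on 9, *Fads6* on 11 and *Elovl2* on 13. RefSeq (GRCm38.p6) windows of 250 bases before to 50 after a start were at hand for 6 of the 9 members (8 windows), and not for *Fads1*, *Elovl3* and *Scd2*. The 250 bases before the start follow, 5′ to 3′ on the gene's strand, for *Elovl1* (chr4:118427843-118428092, plus strand), *Fads3* (chr19:10041298-10041547, plus), *Fads2* (chr19:10101504-10101753, minus) and *Elovl5* (chr9:77917115-77917364, plus). Capitals mark the GC box bound by Sp1 (GGGCGG on either strand), the NF-Y box (CCAAT on either strand) and the E-box (CACGTG).
Elovl1: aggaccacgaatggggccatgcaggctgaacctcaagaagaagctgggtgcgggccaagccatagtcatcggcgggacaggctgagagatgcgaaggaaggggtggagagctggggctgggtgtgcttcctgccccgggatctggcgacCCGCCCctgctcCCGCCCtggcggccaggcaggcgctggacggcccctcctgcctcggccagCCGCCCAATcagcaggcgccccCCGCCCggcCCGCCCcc
Fads3: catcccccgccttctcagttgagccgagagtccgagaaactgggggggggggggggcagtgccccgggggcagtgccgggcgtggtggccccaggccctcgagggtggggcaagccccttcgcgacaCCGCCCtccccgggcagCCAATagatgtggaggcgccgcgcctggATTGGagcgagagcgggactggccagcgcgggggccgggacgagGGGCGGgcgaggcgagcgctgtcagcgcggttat
Fads2: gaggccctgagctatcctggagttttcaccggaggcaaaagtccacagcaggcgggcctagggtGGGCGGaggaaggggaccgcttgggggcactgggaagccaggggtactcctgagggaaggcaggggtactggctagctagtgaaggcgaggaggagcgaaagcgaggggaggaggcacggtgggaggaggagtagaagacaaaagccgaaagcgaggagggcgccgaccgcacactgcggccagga
Elovl5: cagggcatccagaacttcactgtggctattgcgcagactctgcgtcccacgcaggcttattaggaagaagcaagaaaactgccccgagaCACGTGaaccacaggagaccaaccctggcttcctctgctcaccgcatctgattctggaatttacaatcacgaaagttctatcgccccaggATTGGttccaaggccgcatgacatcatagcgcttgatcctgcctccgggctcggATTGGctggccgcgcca

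The *Elovl1* window printed here held 5 Sp1 boxes and 1 NF-Y box that overlaps one of them. A second *Elovl1* window, not printed, held 2 Sp1 boxes and 0 NF-Y boxes. *Fads3* held 2 of each, *Fads2* held 1 Sp1 box, and *Elovl5* held 1 E-box and 2 NF-Y boxes. Over the whole windows, on both strands, an Sp1 box was present in 6 of the 8 member windows against 35.7% of all 32851 windows, an NF-Y box in 3 against 37.4%, and an E-box in 1 against 7.15%. The Sp1 box is all G and C, and the member windows were 57.7% to 84.7% G and C, against a median of 52.7% over all windows. Both *Elovl2* windows share bases, so the 8 are not separate. The part of base composition in the Sp1 count was not tested. The core of the sterol regulatory element (TCACNCCAC) was in 0 of the 8 windows and in 1.24% of all windows. Exact direct repeats of the nuclear receptor half-site, with spacings read by PPARα (DR1) or LXR (DR4), were in 0 of the 8 and in 0.0396% and 0.0152% of all windows.

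Per kilobase of the canonical transcript, the polyunsaturated fatty acid enzymes were the abundant ones among the members. *Scd1*, a stearoyl-CoA desaturase that is not a member, was above all members in fed *Nts*+/+ livers, at 1495, 1814 and 470 TMM-normalized CPM per kb. In fasted *Nts*+/+ livers *Scd1* was at 173, 144 and 45.6 per kb, below every mouse of *Elovl5*. In fed *Nts*+/+ livers *Elovl5*, which elongates the products of *Fads2*, had a mean level of 243 TMM-normalized CPM per kb, followed by *Fads1* at 184, *Elovl2* at 177 and *Fads2* at 85.4. *Fads6* (18.7), *Elovl1* (17.9), *Elovl3* (4.66), *Scd2* (0.884) and *Fads3* (0.801) followed on the same scale. The ranges of the mice overlapped between *Fads1* and *Elovl2*, between *Fads6* and *Elovl1*, and between *Elovl3*, *Scd2* and *Fads3*, so these neighbours were not separated. Among the members *Elovl5* had the highest mean in all 4 groups, and its mice were clear of every other member in 3 of these groups. In fed *Nts*+/+ livers its lowest mouse (205 per kb) was below the highest of *Elovl2* (215 per kb). In both fasted groups *Elovl2* (225 and 232 per kb) stood above *Fads1* (117 and 108 per kb) with no overlap of mice, whereas in both fed groups the mice of these genes overlapped.

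**Figure D1:**
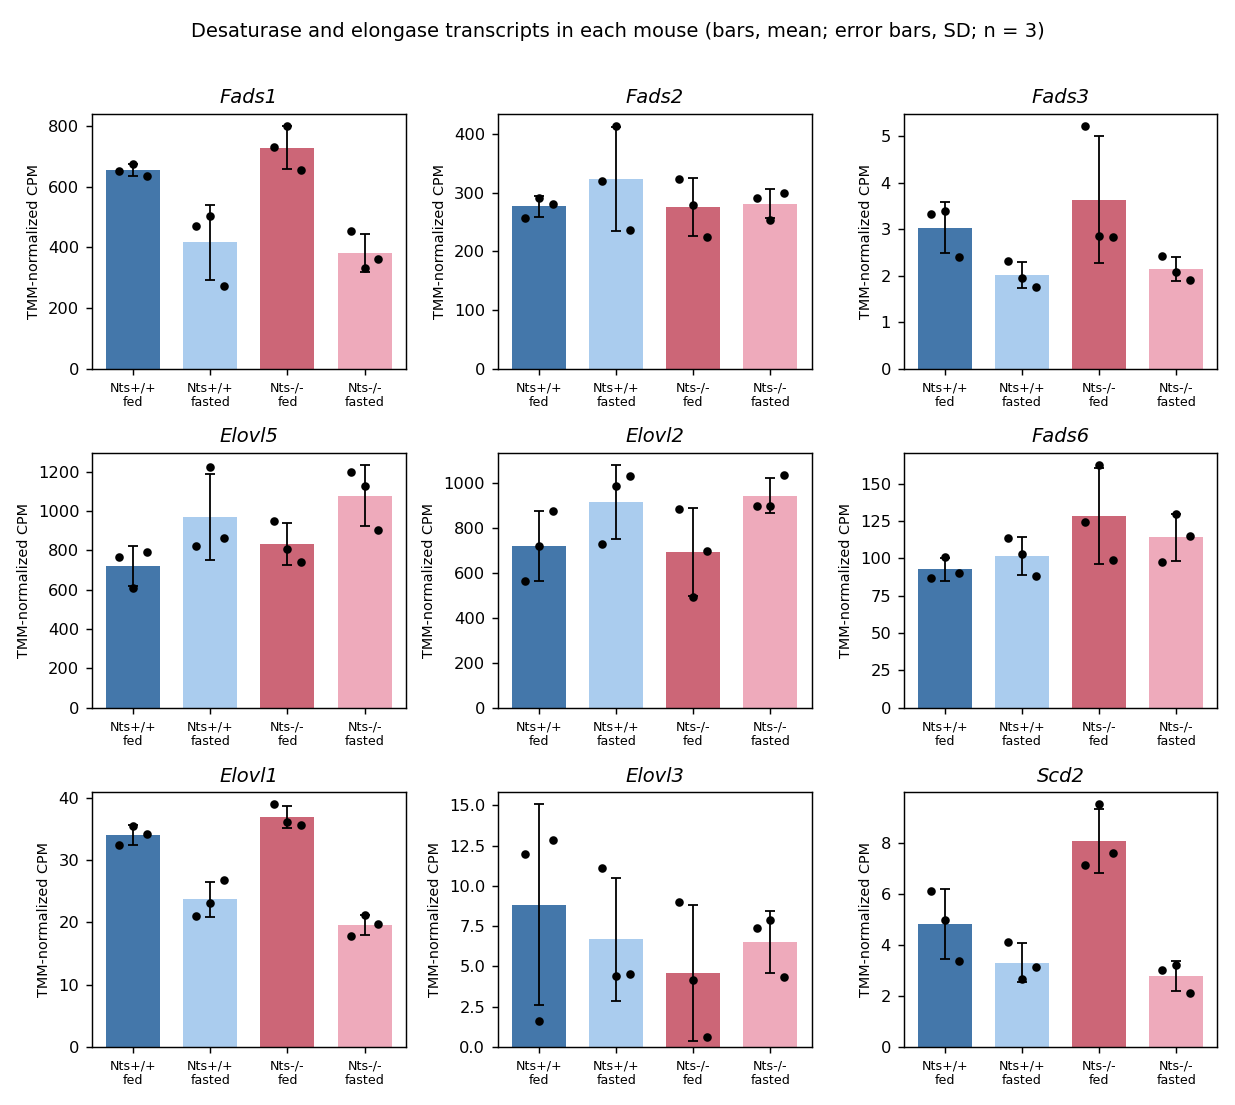
TMM-normalized CPM of the 9 genes (y axis, each panel on its own scale from 0) in the 4 groups (x axis). Points are mice, bars the group mean and error bars the SD (n = 3). *Fads1* and *Elovl1* are lower in every fasted liver than in any fed liver of the same label, *Fads2* overlaps between fed and fasted in both labels, and *Elovl3* spreads from 0.604 to 12.9.

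Fasting lowered *Fads1* and *Elovl1* under both genotype labels and *Scd2* in livers labelled *Nts*-/-, while *Fads2*, a genomic neighbour of *Fads1*, did not pass the test. In livers labelled *Nts*+/+, 2 of the 9 members were called, both lower, where 18.1% of all tested genes were called, 8.91% higher and 9.19% lower. In livers labelled *Nts*-/-, 3 of 9 were called, all lower, against 16.8% of all tested genes, 7.7% higher and 9.14% lower. The median log2 fold change of the members was -0.41 and -0.17, beside -0.0032 and -0.011 over all tested genes. These medians are the values of single genes, *Elovl3* and *Fads6*, which did not pass. Under both labels 5 members had a negative and 4 a positive log2 fold change. In whole liver, fewer cells of a type and less RNA per cell cannot be told apart.

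*Fads1* is the desaturase that completes arachidonic and eicosapentaenoic acid. Its level was 652, 675 and 635 TMM-normalized CPM in fed *Nts*+/+ livers (654 ± 19.9, SD, n = 3) and 469.7, 503 and 274 in fasted ones (416 ± 124). Under the *Nts*-/- label it was 729, 798 and 656 fed (728 ± 70.9) and 452, 333 and 360.1 fasted (382 ± 62.7). Every fasted liver was below every fed liver, also across the labels. *Fads1* fell 1.57-fold in *Nts*+/+ (log2 fold change -0.65, SE 0.20, adjusted p = 0.0371) and 1.91-fold in *Nts*-/- (log2 fold change -0.93, SE 0.20, adjusted p = 0.00699). The *Nts*+/+ call was lost when some single mice were left out. Mouse 322 was the lowest, and without it the log2 fold change was -0.42 (adjusted p = 0.0899). The call was also lost without mouse 254, 257 or 323 (adjusted p = 0.0972, 0.0951 and 0.0610). There the log2 fold change stayed near that of all mice, at -0.66, -0.63 and -0.67.

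*Fads2* is the desaturase that takes the first step from linoleic and alpha-linolenic acid. Its level was 257, 292 and 281 TMM-normalized CPM in fed and 321, 414 and 237 in fasted *Nts*+/+ livers, and 324, 279.6 and 225 in fed and 291, 253 and 300.0 in fasted *Nts*-/- livers. Fed and fasted mice overlapped under both labels. The log2 fold change was 0.23 (SE 0.19, adjusted p = 0.437) and 0.028 (SE 0.19, adjusted p = 0.941). Taking 2 SE on each side, the interval ran from -0.15 to 0.60 in *Nts*+/+ and from -0.35 to 0.40 in *Nts*-/-, so a fall of the size measured for *Fads1* lay outside both.

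The ratio of *Fads2* to *Fads1* within each liver separated feeding states completely. It was 0.395, 0.433 and 0.443 in fed and 0.683, 0.822 and 0.868 in fasted *Nts*+/+ livers, and 0.445, 0.350 and 0.343 in fed and 0.645, 0.762 and 0.833 in fasted *Nts*-/- livers. The lowest fasted value, 0.645, was above the highest fed value, 0.445. The mean ratio was 1.91-fold higher on fasting (0.94 on the log2 scale, with 0.89 in *Nts*+/+ and 0.98 in *Nts*-/-). A two-sided exact permutation test of feeding within genotype label (400 permutations) gave p = 0.005, the smallest value this design allows. *Fads1* alone also separated every fasted from every fed liver, so the ratio is not independent of the fall of *Fads1*. Leaving out any 1 mouse left the log2 difference between 0.89 and 0.99.

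**Figure D2:**
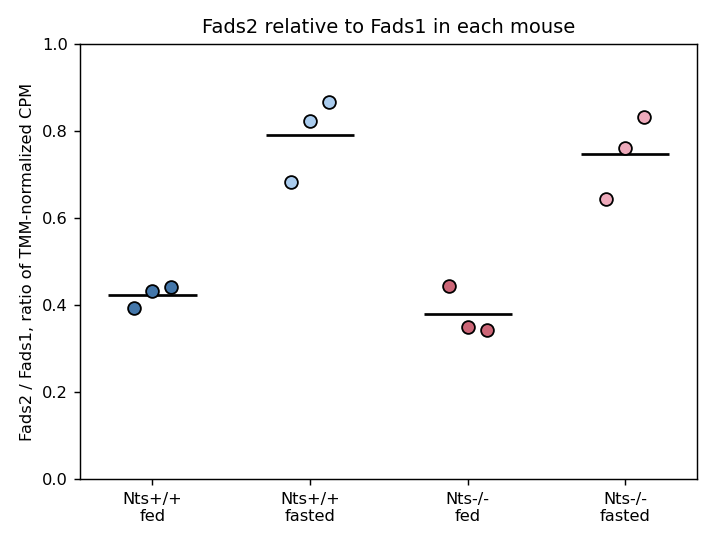
Ratio of *Fads2* to *Fads1*, both in TMM-normalized CPM (y axis), in each mouse by group (x axis); lines are group means (n = 3). All 6 fasted livers lie between 0.645 and 0.868, above all 6 fed livers (0.343 to 0.445).

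*Fads3*, a low transcript whose enzyme is known to act on sphingoid bases, was 3.32, 3.38 and 2.39 TMM-normalized CPM in fed and 2.32, 1.95 and 1.76 in fasted *Nts*+/+ livers. Under the *Nts*-/- label it was 5.21, 2.86 and 2.82 fed and 2.43, 2.08 and 1.91 fasted. No fasted mouse overlapped a fed mouse of its label, yet neither test passed, with log2 fold changes of -0.60 (SE 0.27, adjusted p = 0.132) and -0.78 (SE 0.26, adjusted p = 0.0576). Separation of this kind was common. Over all tested genes, fed and fasted mice did not overlap for 36% in *Nts*+/+ and 35.2% in *Nts*-/-, against 4 and 5 of the 9 members.

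Within 100000 bases of the 3 neighbouring *Fads* genes, 6 other genes were tested. *Fen1*, a DNA repair nuclease, fell with fasting in *Nts*+/+ (log2 fold change -0.77, adjusted p = 0.0331), as did *Tmem258* (log2 fold change -0.84, adjusted p = 0.00750), a subunit of the oligosaccharyltransferase complex. In *Nts*-/-, *Rab3il1* fell (log2 fold change -0.76, adjusted p = 0.0109). No neighbour rose under either label, and *Fen1* and *Tmem258* did not pass in *Nts*-/- (adjusted p = 0.0596 and 0.0607), nor *Rab3il1* in *Nts*+/+ (adjusted p = 0.0689).

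*Elovl5* and *Elovl2* elongate polyunsaturated acyl chains, *Elovl2* at the longer lengths that lead to docosahexaenoic acid. *Elovl5* was 764, 606 and 792 TMM-normalized CPM in fed and 822, 1221 and 862 in fasted *Nts*+/+ livers, and 949, 806 and 738 in fed and 1200.1, 1127 and 905 in fasted *Nts*-/- livers. Its fed and fasted mice did not overlap in *Nts*+/+ and overlapped in *Nts*-/-. The log2 fold change was 0.43 (SE 0.18, adjusted p = 0.124) and 0.37 (SE 0.18, adjusted p = 0.181), so neither passed.

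*Elovl2* was 565, 720.2 and 875 TMM-normalized CPM in fed and 728, 988 and 1033 in fasted *Nts*+/+ livers, and 886, 492 and 700.3 in fed and 898, 902 and 1037 in fasted *Nts*-/- livers. The mice overlapped in *Nts*+/+, and in *Nts*-/- the highest fed liver (886) was just below the lowest fasted liver (898). The log2 fold change was 0.35 (SE 0.22, adjusted p = 0.292) and 0.45 (SE 0.22, adjusted p = 0.176).

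*Elovl1*, the elongase of very long saturated and monounsaturated chains for sphingolipids, had the smallest p of the 9 members under both labels. It was 32.4, 35.6 and 34.3 TMM-normalized CPM in fed (34.1 ± 1.60) and 21.1, 23.2 and 26.8 in fasted *Nts*+/+ livers (23.7 ± 2.87), and 39.0, 36.2 and 35.7 in fed (37.0 ± 1.79) and 17.8, 21.2 and 19.8 in fasted *Nts*-/- livers (19.6 ± 1.69). All 6 fasted livers were below all 6 fed livers. The fall was 1.44-fold in *Nts*+/+ (log2 fold change -0.52, SE 0.12, adjusted p = 0.00774) and 1.89-fold in *Nts*-/- (log2 fold change -0.91, SE 0.12, adjusted p = 0.000196). Its spread between mice of a group, an SD of 0.12 on the log2 scale, was at the 7.98th percentile of all tested genes, whose median SD was 0.24.

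*Elovl3*, an elongase of saturated and monounsaturated chains known from skin and brown fat, stood at the other end, with an SD of 1.35 on the log2 scale at the 99.1th percentile. It was 12.0, 1.62 and 12.9 TMM-normalized CPM in fed and 11.1, 4.40 and 4.53 in fasted *Nts*+/+ livers, and 9.02, 4.13 and 0.604 in fed and 7.38, 7.88 and 4.32 in fasted *Nts*-/- livers. The highest liver was 21.3-fold above the lowest, both were fed, and all groups overlapped. The log2 fold changes on fasting, -0.41 (SE 0.90) and 0.47 (SE 0.91), had intervals of 2 SE from -2.21 to 1.38 and from -1.34 to 2.28, so changes of several fold in either direction were not detectable. The count behind the lowest value was 15.

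*Fads6*, a member of the family whose substrate is not given here, was 86.8, 101 and 89.9 TMM-normalized CPM in fed and 114, 103 and 87.9 in fasted *Nts*+/+ livers, and 124, 162 and 98.9 in fed and 97.9, 129 and 115 in fasted *Nts*-/- livers. Fed and fasted mice overlapped under both labels. The log2 fold change was 0.13 (SE 0.17, adjusted p = 0.643) and -0.17 (SE 0.17, adjusted p = 0.540).

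*Scd2*, a stearoyl-CoA desaturase best known from brain, was 6.13, 4.97 and 3.37 TMM-normalized CPM in fed and 4.13, 2.64 and 3.15 in fasted *Nts*+/+ livers, and 7.14, 9.52 and 7.61 in fed (8.09 ± 1.26) and 3.02, 3.20 and 2.10 in fasted *Nts*-/- livers (2.78 ± 0.591). Fed and fasted overlapped in *Nts*+/+ and were well apart in *Nts*-/-. The fall in *Nts*-/- was 2.94-fold (log2 fold change -1.56, SE 0.25, adjusted p = 0.00114), whereas in *Nts*+/+ the log2 fold change was -0.56 (SE 0.25, adjusted p = 0.141). These *Scd2* values carry some uncertainty from shared reads, since its expected counts had fractions in 11 of 12 libraries, as did those of its paralog *Scd1*, while the other 8 members had whole counts in every library. The fractions were small, at most 0.11 of a count for *Scd2* and 0.18 for *Scd1*, where the expected counts of *Scd2* ran from 66.0 to 270.1. *Scd1*, the main hepatic stearoyl-CoA desaturase, had between 72.8 and 1835 times the counts of *Scd2* and ranged from 229 to 11725 TMM-normalized CPM. It fell with fasting under both labels, and whether reads of *Scd1* were assigned to *Scd2* was not tested.

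**Figure D3:**
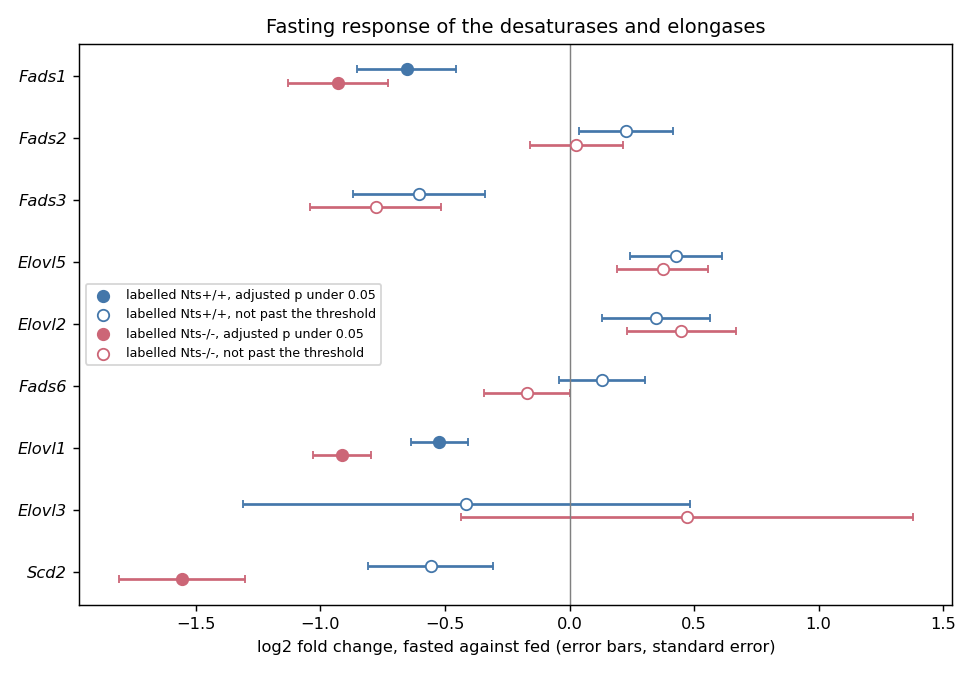
Log2 fold change of fasted against fed livers (x axis) for the 9 genes (y axis) under each genotype label; points are edgeR estimates, error bars 1 SE, and filled points have an adjusted p under 0.05. *Fads1* and *Elovl1* are filled under both labels, *Scd2* only under the *Nts*-/- label, and *Elovl3* has the widest bars.

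Averaging the fasting response over the genotype labels, 6 fasted against 6 fed mice, was chosen after the values had been seen. In that comparison 32.8% of all tested genes were called, 16.8% lower and 16% higher. Of the members, *Elovl1* (log2 fold change -0.72, adjusted p = 2.68e-05), *Scd2* (-1.06, adjusted p = 0.000574), *Fads1* (-0.79, adjusted p = 0.000890) and *Fads3* (-0.69, adjusted p = 0.0118) fell. *Elovl5* rose (log2 fold change 0.40, SE 0.13, adjusted p = 0.0297), a call that was lost without mouse 257, 282, 303, 319, 284 or 290 (adjusted p between 0.0542 and 0.0829). *Elovl2* had a log2 fold change of the same size, 0.40 (SE 0.15, adjusted p = 0.0625), and passed without mouse 323, 265 or 277 (adjusted p = 0.0339, 0.0329 and 0.0259). *Fads2* (0.13), *Fads6* (-0.021) and *Elovl3* (0.028) did not pass.

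Between genotype labels, no member passed the test in fed or fasted livers, averaged over both, or in the difference of the fasting responses. The same held for all 13812 tested genes with edgeR, 0% called in each comparison, although 876, 685, 859 and 663 genes had an unadjusted p under 0.05, among them 2, 1, 1 and 2 members. DESeq2 called 12, 4, 16 and 3 genes in these comparisons, with 0 members among them. The median log2 fold change of the members was 0.15 in fed and -0.026 in fasted livers, beside 0.010 and -0.0087 over all tested genes.

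The members with an unadjusted p under 0.05 were *Scd2*, *Fads6* and *Elovl1*. *Scd2* was higher in all 3 fed livers labelled *Nts*-/- than in any fed *Nts*+/+ liver (log2 fold change 0.74, SE 0.24, unadjusted p = 0.00899, adjusted p = 0.734), and in fasted livers the log2 fold change was -0.26. Its fasting response differed between the labels by -0.998 (SE 0.35, unadjusted p = 0.0138, adjusted p = 0.897), with an interval of 2 SE from -1.71 to -0.29. *Fads6* differed by 0.47 in fed livers (SE 0.17, unadjusted p = 0.0168, adjusted p = 0.734) with overlapping mice, and by 0.32 averaged over feeding states (unadjusted p = 0.0204, adjusted p = 0.760). *Elovl1* differed by -0.28 in fasted livers (SE 0.12, unadjusted p = 0.0324, adjusted p = 0.917), and its fasting responses differed by -0.39 (SE 0.16, unadjusted p = 0.0307, adjusted p = 0.897). *Scd2* and *Elovl1* were the 2 members whose fed groups did not overlap between labels, which held for 10.7% of all tested genes. In fasted livers 0 members were separated, against 12.2% of all tested genes.

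The intervals set how large a genotype difference could have gone undetected. In fed livers, 2 SE on each side of the estimate ran from -0.24 to 0.55 for *Fads1*, from -0.38 to 0.37 for *Fads2*, from -0.16 to 0.57 for *Elovl5* and from -0.49 to 0.38 for *Elovl2*. In fasted livers they ran from -0.52 to 0.28, from -0.58 to 0.17, from -0.21 to 0.52 and from -0.39 to 0.48 for the same genes. A difference of 1 on the log2 scale therefore lay outside the intervals of these abundant transcripts, whereas for *Elovl3* the fed interval reached from -2.72 to 0.89.

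**Figure D4:**
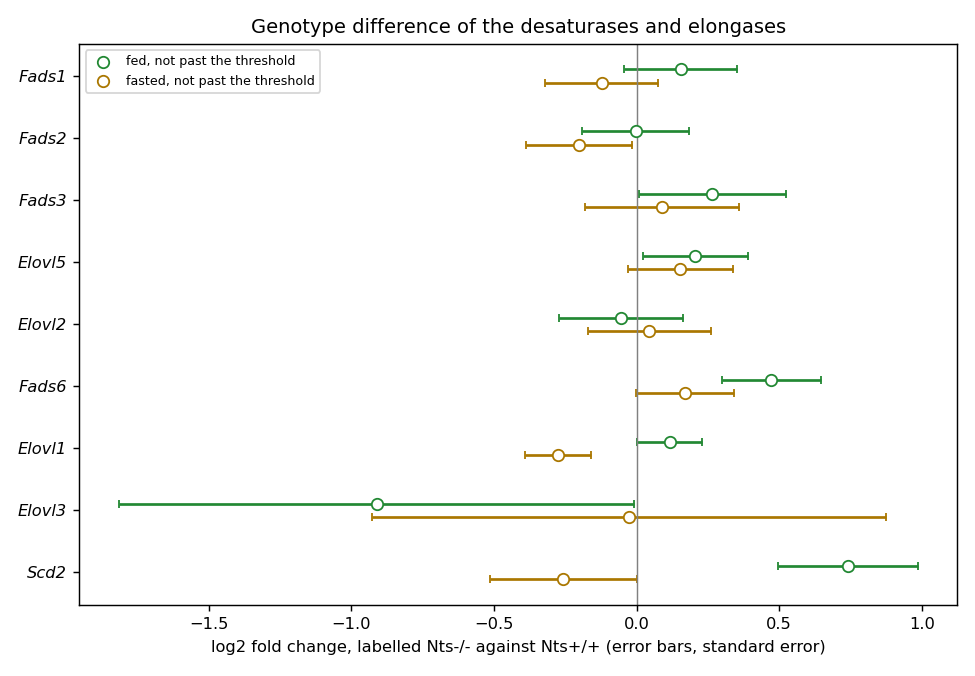
Log2 fold change of livers labelled *Nts*-/- against *Nts*+/+ (x axis) for the 9 genes (y axis) in fed and fasted livers; points are edgeR estimates and error bars 1 SE. All points are open, since no adjusted p was under 0.05, and *Scd2* in fed livers (0.74) lies farthest above 0.

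The rest of the pathway was described from fixed lists of genes. Of 9 other desaturases and elongases, 4 were tested, and *Scd1* and *Elovl6*, the elongase that makes stearate from palmitate, fell under both labels. *Scd1* was 7509, 9115 and 2361 TMM-normalized CPM in fed and 869, 724 and 229 in fasted *Nts*+/+ livers (log2 fold change -3.38, SE 0.72, adjusted p = 0.0123), and 8876, 11725 and 7744 in fed and 324, 1369.6 and 597 in fasted *Nts*-/- livers (-3.63, SE 0.73, adjusted p = 0.00967). Without mouse 290, the highest fasted liver, the *Nts*-/- log2 fold change of *Scd1* was -4.36 (adjusted p = 0.0119). *Elovl6* was 65.9, 70.5 and 63.8 in fed and 23.3, 27.0 and 23.9 in fasted *Nts*+/+ livers (log2 fold change -1.43, SE 0.43, adjusted p = 0.0438), and 115, 179.9 and 40.4 in fed and 23.6, 25.3 and 39.7 in fasted *Nts*-/- livers (-1.92, SE 0.43, adjusted p = 0.0143). Fed and fasted livers did not overlap for either gene. The *Elovl6* call in *Nts*+/+ was lost without any 1 of its 6 mice (adjusted p between 0.0729 and 0.111), and that in *Nts*-/- without mouse 284 or 290 (adjusted p = 0.0585 and 0.0627). *Degs1*, the ceramide-forming desaturase, had log2 fold changes of 0.047 and 0.049, and *Elovl7* of 0.53 and -0.25, none past the threshold.

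Each elongation cycle also needs a ketoreductase, a dehydratase and an enoyl reductase. Of 7 such partners 6 were tested, and 2, the dehydratases *Hacd3* and *Hacd1*, rose under both labels while 0 fell (median log2 fold change 0.028 and 0.068). *Hacd3* rose by 0.97 in *Nts*+/+ (SE 0.17, adjusted p = 0.00187) and by 0.94 in *Nts*-/- (SE 0.17, adjusted p = 0.00225). *Hacd1* rose by 0.56 (SE 0.15, adjusted p = 0.0188) and 0.46 (SE 0.15, adjusted p = 0.0436), calls that were lost without mouse 254, 282 or 322 (adjusted p between 0.0619 and 0.0917) and without any 1 of the 6 mice labelled *Nts*-/- (adjusted p between 0.0654 and 0.144). *Tecrl*, which was not tested, was at 0 in all livers.

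Desaturases receive electrons from cytochrome b5 and its reductases. Of 7 electron donors 6 were tested. The median log2 fold change was -0.33 in *Nts*+/+ and -0.17 in *Nts*-/-, and *Por*, the cytochrome P450 reductase, moved opposite to the called cytochrome b5 genes. *Por* was 264, 275 and 312 TMM-normalized CPM in fed and 773, 762 and 827 in fasted *Nts*+/+ livers (log2 fold change 1.47, SE 0.12, adjusted p = 1.50e-05), and it rose by 1.33 in *Nts*-/- (SE 0.12, adjusted p = 2.55e-05). *Cyb5b*, the outer mitochondrial membrane form, was 560.4, 667 and 456 in fed and 190.3, 205 and 196 in fasted *Nts*+/+ livers (log2 fold change -1.51, SE 0.19, adjusted p = 0.000277), and it fell by 1.72 in *Nts*-/- (SE 0.19, adjusted p = 9.90e-05). *Cyb5r3*, the main cytochrome b5 reductase, fell (log2 fold change -1.26, SE 0.18, adjusted p = 0.000458, and -1.41, SE 0.18, adjusted p = 0.000176). *Cyb5a*, the endoplasmic reticulum form that serves these desaturases, did not pass, with log2 fold changes of -0.039 (adjusted p = 0.907) and 0.44 (adjusted p = 0.122). *Cyb5r4* fell in *Nts*+/+ alone (log2 fold change -0.36, adjusted p = 0.0352), a call lost without mouse 254, 323, 265, 282 or 322 (adjusted p between 0.0611 and 0.112). No test of the difference between labels passed for it.

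Of 18 regulators, all tested, 3 rose and 5 fell in *Nts*+/+, and 1 rose and 7 fell in *Nts*-/-. *Srebf1*, which encodes SREBP-1c, fell (log2 fold change -2.90, SE 0.37, adjusted p = 0.000622, and -3.32, SE 0.38, adjusted p = 0.000254), and *Insig1*, a retention factor and target of the SREBPs, fell as well (-3.09, SE 0.37, adjusted p = 0.000426, and -3.66, SE 0.38, adjusted p = 0.000141). *Mlxipl*, which encodes the carbohydrate sensor ChREBP, fell (log2 fold change -1.83, SE 0.25, adjusted p = 0.000549, and -1.07, SE 0.24, adjusted p = 0.0107). *Srebf2*, the sterol-regulated family member, fell (log2 fold change -0.64, SE 0.16, adjusted p = 0.0142, and -1.29, SE 0.16, adjusted p = 0.000176). Without mouse 254 or 265, the *Srebf2* call in *Nts*+/+ was lost (adjusted p = 0.0535 and 0.0568). *Insig2*, the isoform known to be high in fasted liver, rose under both labels, by 1.68 (SE 0.36, adjusted p = 0.00984) and 2.04 (SE 0.37, adjusted p = 0.00393). *Mbtps2* had the smallest p of the regulators that rose in *Nts*+/+ (log2 fold change 0.71, adjusted p = 0.00494), and had 0.13 in *Nts*-/- (adjusted p = 0.582). *Ppara* rose in *Nts*+/+ (log2 fold change 0.89, SE 0.21, adjusted p = 0.0119), lost the call without mouse 254 (adjusted p = 0.0546), and had 0.60 in *Nts*-/- (SE 0.21, adjusted p = 0.0687). The LXR genes *Nr1h3* and *Nr1h2* and *Rxra* had log2 fold changes between -0.084 and 0.14 and did not pass. The median over the list was 0.0071 and 0.084.

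Peroxisomal chain shortening makes docosahexaenoic acid from its longer precursor. Of 11 genes, all tested, 8 rose and 0 fell under both labels, with a median log2 fold change of 0.79 and 0.91. The thiolase *Acaa1a* rose by 1.44 (SE 0.17, adjusted p = 0.000149) and 1.69 (SE 0.17, adjusted p = 4.66e-05), the thioesterase *Acot8* by 1.07 (SE 0.13, adjusted p = 0.000189) and 1.34 (SE 0.13, adjusted p = 4.02e-05), the multifunctional enzyme *Hsd17b4* by 0.97 (SE 0.13, adjusted p = 0.000352) and 1.21 (SE 0.13, adjusted p = 7.11e-05), and the isomerase *Eci2* by 0.79 (SE 0.15, adjusted p = 0.00352) and 1.51 (SE 0.15, adjusted p = 5.16e-05). Among the others that rose, *Decr2* lost its call in *Nts*+/+ without mouse 254, 257, 265 or 282 (adjusted p between 0.0536 and 0.0796), and *Abcd3* in *Nts*-/- without mouse 290 (adjusted p = 0.0553).

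Of 11 genes that supply malonyl-CoA or acyl-CoA, all tested, 1 rose and 4 fell under both labels, with medians of -0.29 and -0.37. The lipogenic enzymes *Acly* (log2 fold change -2.28, SE 0.32, adjusted p = 0.000906, and -2.85, SE 0.33, adjusted p = 0.000213), *Fasn* (-1.93 and -2.96) and *Acaca* (-0.69 and -1.13), and the acyl-CoA synthetase *Acsl3* (-1.53, SE 0.15, adjusted p = 6.05e-05, and -1.96, SE 0.15, adjusted p = 8.13e-06) fell. The *Acaca* call in *Nts*+/+ was lost without mouse 254, 257, 265, 282 or 322 (adjusted p between 0.0501 and 0.134). *Slc27a2*, a transporter and very long chain acyl-CoA synthetase, rose by 1.18 (SE 0.19, adjusted p = 0.00113) and 1.45 (SE 0.19, adjusted p = 0.000248). Of 12 phospholipid acyltransferases 10 were tested, and *Agpat3* rose by 1.08 (SE 0.15, adjusted p = 0.000429) and 1.17 (SE 0.15, adjusted p = 0.000190). *Mboat7*, which places arachidonic acid in phosphatidylinositol, fell in *Nts*-/- (log2 fold change -0.46, SE 0.11, adjusted p = 0.0143), a call lost without mouse 277, 284 or 290 (adjusted p between 0.0522 and 0.0741). The medians were -0.098 and -0.093. In the 4 genotype comparisons, 0 genes of any of these lists passed.

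**Figure D5:**
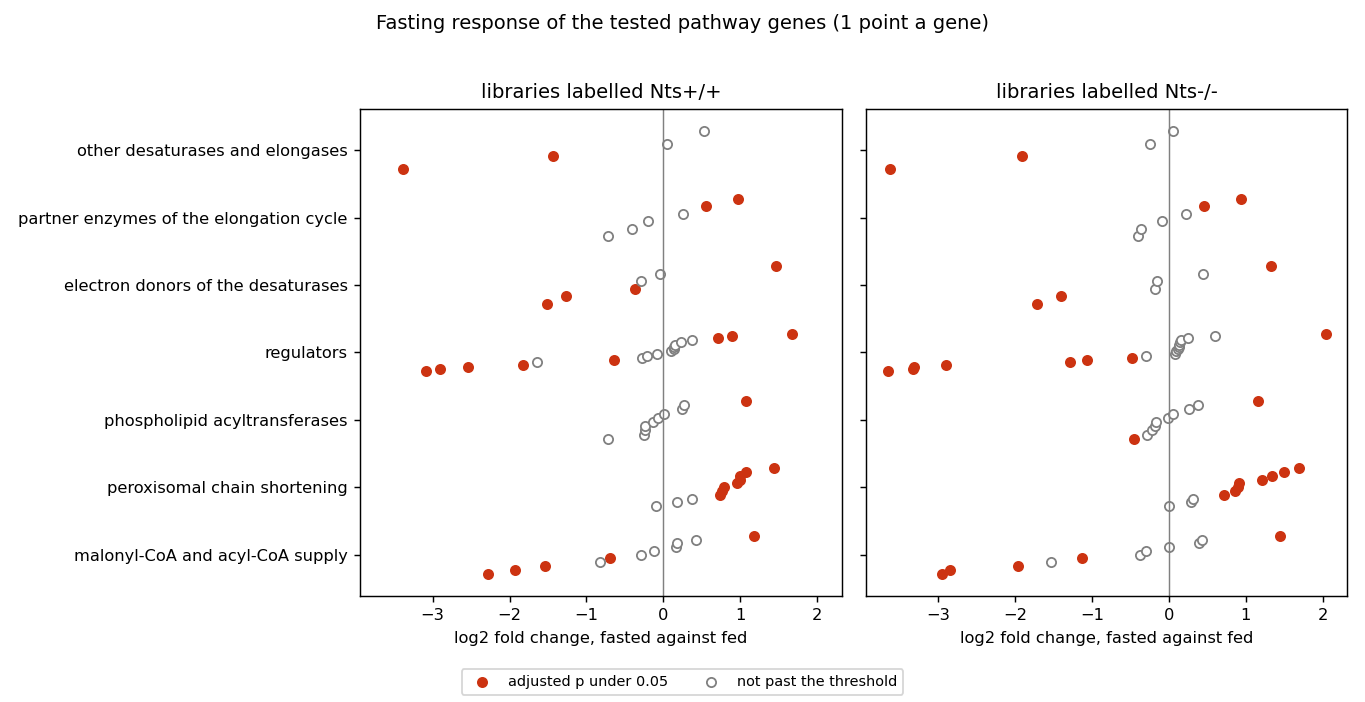
Log2 fold change of fasted against fed livers (x axis) for the tested genes of the 7 pathway lists (y axis) under each genotype label; 1 point is 1 gene, and red points have an adjusted p under 0.05. Peroxisomal chain shortening has 8 red points, all above 0, under both labels, and the red points below -2 include *Scd1*, *Srebf1*, *Insig1* and *Acly*.

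Some markers of other liver cells were also called between fed and fasted livers, while 0 of 8 lymphocyte markers were called under either label. The summed level of 7 stellate cell markers ranged from 232 to 258 TMM-normalized CPM in fed and from 190 to 215 in fasted *Nts*+/+ livers, and from 204 to 283 and from 193 to 208 under the *Nts*-/- label. Of these markers, 3 fell in *Nts*+/+ (*Pdgfrb*, *Col3a1* and *Lrat*) and 5 in *Nts*-/-, and 0 rose. For 6 markers of sinusoidal endothelium the sums were 142 to 207 fed and 128 to 133 fasted in *Nts*+/+, and 166 to 186 and 121 to 146 in *Nts*-/-, with 1 higher and 1 lower in *Nts*+/+ and 2 lower in *Nts*-/-. For 7 markers of Kupffer cells the sums were 352 to 403 fed and 178 to 299.5 fasted in *Nts*+/+, and 223 to 317 and 202 to 348 in *Nts*-/-, with 1 lower (*Clec4f*) and 0. For 6 cholangiocyte markers the sums were 34.1 to 50.2 fed and 13.9 to 26.4 fasted in *Nts*+/+, and 34.0 to 36.0 and 15.3 to 30.1 in *Nts*-/-, with 1 lower under each label. Of the 8 hepatocyte markers, 3 rose and 1 fell under both labels. The part of these cells in the falls of *Elovl1*, *Fads3*, *Fads1* and *Scd2* was not tested.

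The tested genes whose levels over the 12 mice lay closest to each member were named by the smallest root mean square difference of centred log2 levels, as a description. For *Elovl1* they were *Ogfrl1* (0.11), *Sparc* (0.12) and *Il27ra* (0.13), for *Fads3* *Adamts2* (0.18), *Col1a2* (0.19) and *Eps8* (0.19), and for *Scd2* *Gpr153* (0.28), *Caprin2* (0.28) and the stellate marker *Pdgfrb* (0.29). For *Fads1* they were the laminin *Lamb1* (0.16), the growth hormone receptor *Ghr* (0.17) and *Arhgef17* (0.18). For *Fads2* they were *Dock5*, *Arhgef12* and *Cdh2* (all 0.12), for *Elovl5* *Mier3* (0.12), *Hipk3* (0.13) and *Tfb1m* (0.13), for *Elovl2* *Adck2* (0.15), *Tsc22d2* (0.17) and *Ttpal* (0.17), and for *Fads6* *Dnajb14* (0.14), *Cramp1l* (0.15) and *Rbpj* (0.15). No gene came as close to *Elovl3*, whose nearest was the sulfotransferase *Sult3a1* (0.66). The mice share their feeding groups, so likeness here includes the common response to fasting.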

How the data were processed

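Liver RNA of 12 mice, 3 in each of 4 groups, was sequenced. The authors deposited 1 table of expected counts per gene, estimates that need not be whole and are not scaled between mice, with GRCm38 positions. Trimmomatic and RSEM are named in the submitters' processing notes, and versions and aligner are not given in the sources used here. Because RSEM divides reads between similar genes, close paralogs are uncertain.

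Expected counts were rounded. In R 4.3.3, edgeR 4.0.16 kept 13812 genes (filterByExpr), scaled libraries by TMM and ran robust quasi-likelihood tests on a single model of the 4 group means, with Benjamini-Hochberg adjustment over all tested genes. The biological coefficient of variation was 0.202. Alternatives were other normalization factors, other count filters, DESeq2 1.42.0, only the groups compared, and leaving out each mouse. The steps were tested on simulated data. Levels per kb used canonical transcripts of GENCODE vM39, with a length for 99.17% of tested genes. Log2 levels for likeness used a prior count of 2.

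Members and lists were chosen with earlier results of these data known. Of each list, up to 3 genes with the smallest p in each fasting comparison were named, and others, which complete a count or give a known regulator or isoform, after their values were seen. Mice are separate animals, and the edgeR p-values set a group difference against the spread between animals, estimated over the 4 groups together.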

Additional observations from a re-analysis of the deposited data

How the results depend on the processing

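The 9 members gave 63 results over 7 comparisons, with 828 values under the alternatives. Of these, 811 kept their side of the threshold, 11 lost a call, 6 gained one, and 0 calls changed direction. The sign changed in 48 values of 20 results, with 0 calls among them. In fasted against fed livers labelled *Nts*+/+, 1 member was called instead of 2 when only these groups were fitted (*Fads1*, adjusted p = 0.0688), and 1 to 2 when single mice were left out. In *Nts*-/- livers, 3 to 4 members were called when single mice were left out. *Fads3* passed there with DESeq2 (adjusted p = 0.0489) and without mouse 319 (adjusted p = 0.0342). Averaged over the labels, 4 to 6 members were called, and *Elovl2* passed with DESeq2 (adjusted p = 0.0280). The cause of these changes was not tested, and leaving out a mouse also lowers the number of mice.

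Over all genes, the *Nts*+/+ fasting response had 2501 calls, against 1326, 1596 and 1224 without mouse 254, 257 or 282. The *Nts*-/- response had 2326 calls, against 1358, 1523 and 1365 without mouse 277, 284 or 290. Genotype comparisons went from 0 calls to at most 16 genes under any alternative, with 0 members among them. Of 1520 alternative values of named pathway genes, 1414 kept their side of the threshold, 96 lost a call, 10 gained one and 0 reversed. No paired analysis was possible because the replicate numbers are mouse numbers, which no groups share. Litter could not be taken into account either, since the sample labels used here do not give it.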
